A study of Rattus norvegicus with 15 samples.

Results

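Aquaporins are membrane channels that let water, and in some members glycerol and other small solutes, cross a cell membrane along an osmotic or concentration gradient. Each subunit forms its own pore, in which a pair of short NPA motifs (asparagine, proline, alanine) meet, and the subunits assemble as tetramers. In the nose these channels are known for moving water through the olfactory epithelium and its Bowman's glands, which secrete the mucus that covers the olfactory cilia. Levels of the 9 classical aquaporin genes, Aqp1 to Aqp9, were determined in the olfactory epithelium of untreated rats. The members were all array probes whose gene name is one of these 9 symbols, and each gene had 1 probe, so that 9 of the 41012 gene probes on the array were followed.

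The animals were Brown Norway rats (an inbred strain) aged 6 weeks, 4 males (rats 1, 2, 5 and 6) and 4 females (rats 3, 4, 7 and 8), none of them carrying a transgene or receiving a treatment. The epithelium lining each nostril, called A and B in the labels without a side, was dissected from the opened skull and its total RNA was labelled separately. Male rat 1 had nostril A only, which left 7 male and 8 female arrays, 15 in all, each hybridised with 1 Cy3-labelled sample. The supplier of each rat is not in the labels and was not compared.

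Levels are given as the log2 of a probe's signal over the median signal of its array, so that 0 is the median probe and a step of 1 is a doubling. Values under 0.1 of the median were set to that floor (−3.32). The array median lay between 57.4 and 83.4 intensity units, 26233 to 28741 probes per array were well above background, and the dimmest such spot had an intensity of at most 14.5 on any array. All 8 probes for markers of mature olfactory neurons (Omp, Adcy3 and others) and 5 of the 6 for sustentacular cells (Cyp2g1 and others) were detected on 7 arrays or more. These are bulk samples, in which fewer cells of a type and less RNA per cell cannot be told apart. A probe's brightness also depends on its sequence, so levels were compared between samples and not between aquaporins.

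Each probe is a 60-base oligonucleotide, and the probe decides which transcript is read. The longest run of bases shared by any pair of aquaporin probes was 9, and no other probe on the array shared 20 bases in a row with any of them. The sequences are shown for the genes whose values are followed most closely, Aqp1 and Aqp9 by their first 30 bases, and for Aqp2 whole, because its reading frame runs through an NPA motif (capitals, the codons for asparagine, proline and alanine at bases 11 to 19).
Aqp1: ccactggcatagtacagctgcatactcttc
Aqp9: ggtgattgctaagaattttgaaacttgacc
Aqp2: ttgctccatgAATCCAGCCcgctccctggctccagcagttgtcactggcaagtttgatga

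On the rn3 build named in the file headers, the Aqp1 probe lies on the plus strand at chr4:84396592-84396651 and the Aqp9 probe on the minus strand at chr8:75630616-75630675. Aqp2 is read on the plus strand at chr7:138405847-138405906, and the Aqp5 probe starts 11496 bases beyond it, followed after another 7901 bases by the Aqp6 probe. In the RefSeq gene table for the GRCr8 build, where all 9 symbols were matched, no other gene is listed between Aqp2 and Aqp5 or between Aqp5 and Aqp6. The probes of Aqp7 and Aqp3, both genes for glycerol-carrying channels, lie 67850 bases apart on chromosome 5. Whether each probe falls in a coding exon or in a 3′ untranslated exon was not analysed here for the other aquaporins.

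A transcript was called expressed when its signal was well above background on at least 11 of the 15 arrays, weakly expressed on 1 to 10, and not expressed on none. By this rule 6 of the 9 aquaporins were expressed, Aqp1, Aqp2, Aqp3, Aqp4, Aqp5 and Aqp9, each on all 15 arrays. The share was 66.7%, beside 65.1% of all probes. The 3 genes outside this set were Aqp7, which was weakly expressed, and Aqp6 and Aqp8, which were not expressed.

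Aqp3, the aquaglyceroporin of basal cells and glands, gave signals far above the array median, with a level of 10.58 on the lowest array (female 4A), 10.79 on the median array and 10.94 on the highest (female 7B). These signals were 104580 to 137820 intensity units. Aqp5, the water channel of the luminal membrane of secretory glands, ranged from 8.16 (female 4A) through 8.30 to 8.44 (female 3A). On this scale the highest array was 1.28-fold above the lowest for Aqp3 and 1.21-fold for Aqp5.

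Aqp1, the water channel of red cells, endothelium and many connective tissue cells, ranged from 5.30 in nostril B of female 4 through a median of 6.42 to 6.81 in nostril A of male 2. Aqp4, the main water channel of astrocytes, which is also found in the basolateral membrane of airway epithelial cells, ranged from 2.06 (male 5A) through 2.41 to 2.78 (female 8A). The ratio of the highest to the lowest array was 2.84-fold for Aqp1 and 1.64-fold for Aqp4.

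Aqp2, the vasopressin-regulated channel of the kidney collecting duct, lay close to the array median, from −0.36 (male 6B) through −0.14 to 0.036 (female 4B). Its 10 replicate spots were well above background on every array, with intensities averaging 47.7 to 85.5. Aqp9, an aquaglyceroporin of liver that is also made in astrocytes and in some catecholamine neurons, was the most uneven of the expressed members: 0.24 in female 3B, 1.46 on the median array and 2.66 in female 4A, a 5.36-fold range.

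**Figure D1:**
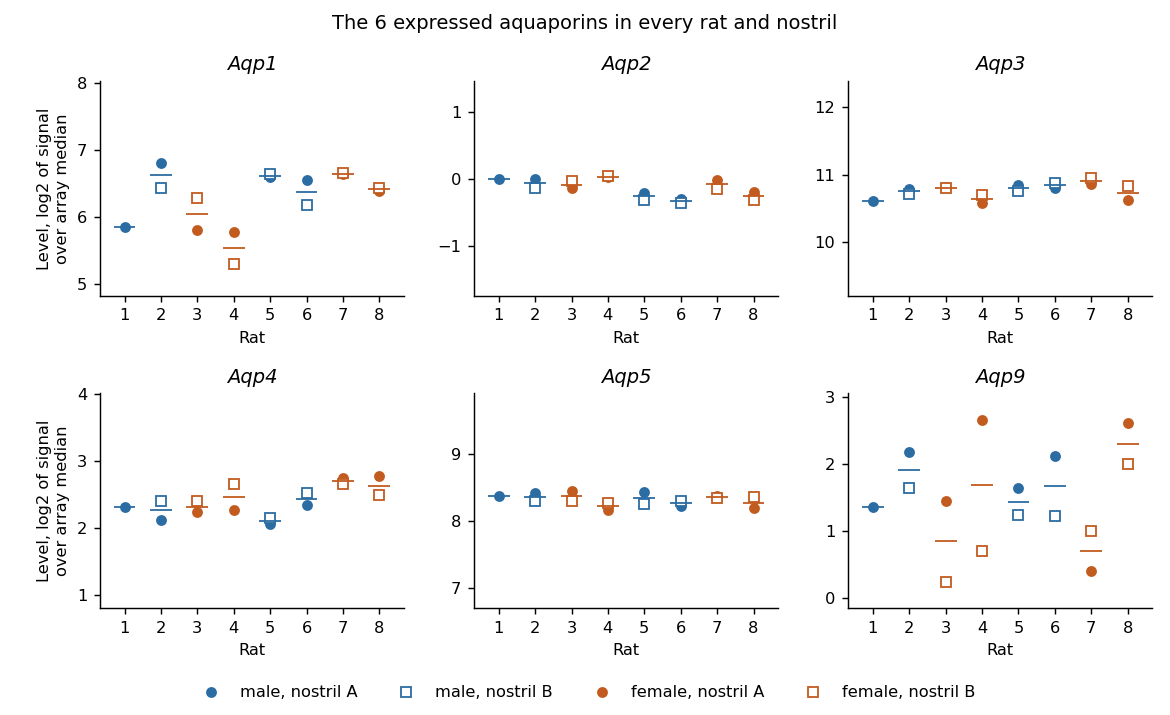
Level of each expressed aquaporin (log2 of signal over the array median, y axis, with the same span in every panel) in each of the 8 rats (x axis). Blue marks males and orange females, filled circles nostril A, open squares nostril B, and short lines the rat mean. Aqp3 and Aqp5 form nearly flat rows, Aqp1 is lowest in rat 4, and the widest gap between the nostrils of one rat is that of Aqp9 in rat 4.

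Aqp7, the glycerol channel of adipocytes, was above background on 3 arrays, females 3B, 4A and 4B, with intensities of 19.3, 18.6 and 18.3. On the other 12 arrays it lay between 2.4 and 13.7 units. The 3 arrays with signal are the 3 that share slide 2. Nostril A of rat 3, on slide 1, was not well above background (12.97 units), and the part of the slide in the Aqp7 values was not tested. Under the scanner's looser call (a positive signal significantly over background) Aqp7 was seen on 14 arrays. Aqp6, a channel of intracellular membranes of the kidney, stayed at −6.4 to −0.6 intensity units after background subtraction, and Aqp8, a channel of gut, liver and mitochondrial membranes, at −2.2 to 1.8. Both were at the floor on every array, and only an upper bound, the dimmest signals well above background (at most 14.5 units), can be given for them. The probe coordinates given for Aqp6 span 760 bases and those for Aqp8 span 747, more than the 60 bases of the probe itself.

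The first comparison asked whether males and females differ. Nostrils were averaged within each rat and the 4 female means were set against the 4 male means with limma over 27625 probes detected on at least 7 arrays. None of the 6 expressed aquaporins passed a false discovery rate of 1%, beside 0.0434% of all probes tested (12 probes). At an unadjusted p under 0.05 there was 1 aquaporin (Aqp4) beside 17.1% of all probes, and the methods' t-test, with the same adjustment, also called 0 aquaporins, beside 0.029% of all probes (8 of 27625). In none of the 6 did the rats of one sex lie wholly outside the range of the other, which was the case for 11.3% of all probes.

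Aqp4 had the largest of these differences. The rat means were 2.33, 2.27, 2.11 and 2.44 in males 1, 2, 5 and 6, and 2.33, 2.47, 2.70 and 2.63 in females 3, 4, 7 and 8. Females 4, 7 and 8 were above every male, female 4 narrowly, while female 3 lay among the males, so the sexes overlapped. The female mean was 2.53 ± 0.17 (SD, n = 4 rats) and the male mean 2.29 ± 0.14. The difference was 0.25 (SE 0.10) or 1.19-fold, with a 95% interval of 1.01 to 1.39-fold, and did not pass the adjustment (limma unadjusted p = 0.0384, adjusted p = 0.263). Only slide 1 held both sexes, with 1 female array (3A, at 2.24) and 3 male arrays. With slide as a fixed block the difference was −0.048 (adjusted p = 0.916) and rests on that single female array, and with slide as a random block it was 0.15.

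Aqp1 was 0.20 lower in females on the log2 scale, 6.16 ± 0.48 beside 6.36 ± 0.36 in males (SE 0.24, limma adjusted p = 0.710), and without rat 4 the difference was 0.0082. Aqp9 was 0.21 lower (SE 0.32, adjusted p = 0.771), with means of 1.39 ± 0.75 in females and 1.60 ± 0.25 in males. For Aqp2, Aqp3 and Aqp5 the sexes differed by 0.067, 0.017 and −0.026, with limma adjusted p-values of 0.787, 0.928 and 0.843. The 95% interval of the female to male ratio ran from 0.905 to 1.13-fold for Aqp3 and from 0.903 to 1.07-fold for Aqp5. For Aqp9 the interval was much wider, 0.525 to 1.42-fold.

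The next comparison asked whether rats of one sex differ by more than the nostrils of one rat do. The F-test covered 6 contrasts within the sexes on 15 arrays. No aquaporin passed 1%, beside 2.79% of all probes (768 of 27574). At 5% there was 1 aquaporin of 6, Aqp1, beside 16.1% of all probes (4442). Aqp1 had mean levels of 5.84, 6.62, 6.61 and 6.37 in males 1, 2, 5 and 6 and of 6.04, 5.54, 6.64 and 6.41 in females 3, 4, 7 and 8. Rat 4 was lowest, rat 7 highest, 2.15-fold above it, and rats 1, 3 and 4 were below all the others. The F was 8.21 (adjusted p = 0.0247), and the SD between nostrils was 0.23. Without rat 4 the adjusted p of the F-test was 0.0623 and without rat 7 it was 0.0754, so that the call at 5% was lost in both settings. With slide as a fixed block the adjusted p was 0.0839. That fit compared rats within slides, males with females among them, so it is a different F-test from the within-sex one.

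Aqp1 is read by 10 spots per array, whose SD within an array had a median of 0.063. For Aqp4 the spot SD had a median of 0.091, with an SD between nostrils of 0.17 and between rat means of 0.19. For Aqp2 the spot SD had a median of 0.23, and the SD between nostrils of its average over the spots was 0.074.

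For the other 5 expressed members the F-test gave adjusted p-values of 0.173 (Aqp2), 0.123 (Aqp3), 0.255 (Aqp4), 0.528 (Aqp5) and 0.329 (Aqp9). The distance from the lowest to the highest rat was 0.16 for Aqp5, a ratio of 1.11-fold, and 98.6% of all probes tested spanned more. With normexp background correction in place of the deposited background-subtracted values the range was 0.65 for Aqp5 and 0.72 for Aqp3, so the small ranges of both hold on the scale used here and not under that alternative. Aqp3 spanned 0.29 (rat 1 lowest, rat 7 highest), Aqp2 0.36 (rat 6 lowest, rat 4 highest) and Aqp4 0.59 (rat 5 lowest, rat 7 highest). Aqp9 spanned 1.60, a ratio of 3.04-fold between rats 7 and 8. Over the 6 genes the median range between rats was 0.47, beside 0.47 for all probes tested, and the median F was 2.41 beside 2.37. The median of the family was close to that of the array as a whole.

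**Figure D2:**
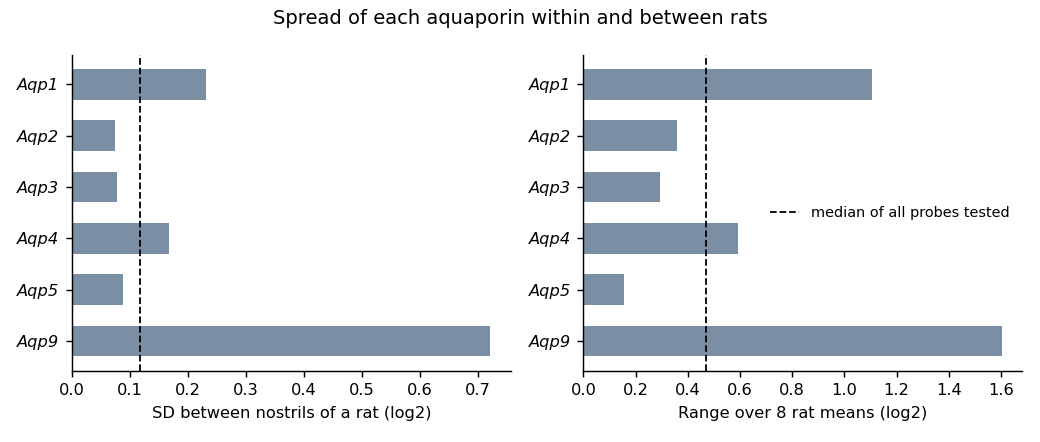
SD between the nostrils of a rat (left) and range over the 8 rat means (right), both in log2 units, for each expressed aquaporin, with the median of all probes tested as a dashed line. Aqp9 has the longest bar in both panels (0.72 and 1.60) and Aqp5 the shortest on the right (0.16).

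For Aqp9 the nostrils of one rat stood apart. The SD between nostrils was 0.72, larger than in 98.9% of the probes tested, while the SD of the rat means was 0.53. Aqp5 also had a larger SD between nostrils (0.088) than between rat means (0.059), both small. For Aqp9, nostril A was the higher in 6 of 7 rats. From A to B the level fell by 0.54 in rat 2, 1.21 in rat 3, 1.95 in rat 4, 0.41 in rat 5, 0.89 in rat 6 and 0.62 in rat 8, and it rose by 0.61 in rat 7. The gap was 3.87-fold in rat 4, whose nostrils gave the highest and the third lowest of the 15 values. The mean change from A to B was −0.72 (SE 0.24, n = 7 rats, limma unadjusted p = 0.0142), which did not pass after adjustment over all probes (adjusted p = 0.781). No probe of the array passed between nostrils (0% at 1%), and 1623 of 27574 had an unadjusted p under 0.05. For the other 5 members the mean nostril difference lay between −0.091 and 0.11, with limma adjusted p-values from 0.799 to 0.951. A test of whether the nostril difference itself differed between the sexes passed 5% for none of the 6 and for 0% of all probes, 652 of 27574 having an unadjusted p under 0.05. The lowest unadjusted p of the 6 was 0.146, for Aqp3 (limma).

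The genes whose profile over the 15 arrays was most like that of Aqp9 were Gfap, the intermediate filament of astrocytes (r = 0.971), Slc1a3, a glial glutamate transporter (r = 0.966), and Th, tyrosine hydroxylase, the rate-limiting enzyme of dopamine synthesis (r = 0.965), out of 12110 named probes detected on every array. These values are a description over 15 arrays that come from 8 rats, and the genes were picked for their likeness. Gfap was lowest in female 3B (−1.01) and highest in female 4A (1.64), a 6.30-fold range. Th was lowest and highest on the same pair of arrays (−2.50 and 2.21), 26.3-fold apart. Slc1a3 ran from 2.79 in female 7A to 4.84 in female 8A. The direction of the nostril difference was that of Aqp9 in 7 of 7 rats for Gfap and for Th and in 6 of 7 for Slc1a3. Centring the values within slides left the correlations at 0.970, 0.972 and 0.964 for Gfap, Slc1a3 and Th, and without slide 2 they were 0.947, 0.941 and 0.965 over 12 arrays. In all, 64 of 25084 probes had an r of at least 0.9 with Aqp9.

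**Figure D3:**
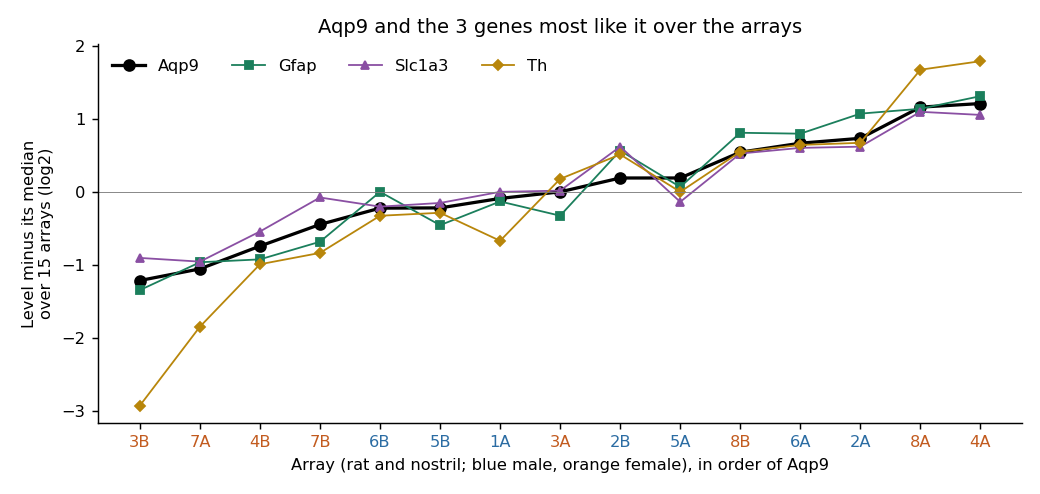
Level of Aqp9 and of Gfap, Slc1a3 and Th, each minus its own median over the 15 arrays (log2, y axis), with the arrays in order of Aqp9 (x axis, rat number and nostril). All 4 lines rise together from female 3B to female 4A, Th most steeply.

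A list of 14 genes of brain tissue, the tissue beyond the bony plate behind the olfactory epithelium, was then read. It was drawn up after these values were seen, and holds neuronal genes (Gad2, Slc32a1, Th and others), astrocyte genes (Gfap, Slc1a2, Slc1a3) and myelin genes (Mbp, Mog, Mobp), some of which nerve and glia of the nose also make. Of its 23 probes 18 were detected on 7 arrays or more, and no gene of the list was at the floor on every array. The summed level ranged from 6.81 to 7.59 over the male arrays and from 6.06 to 7.79 over the female arrays. It was lowest in female 3B, the array with the lowest Aqp9, and its nostril difference had the direction of Aqp9 in 5 of 7 rats. The list holds Gfap, Slc1a3 and Th, which were picked for their likeness to Aqp9, so its sum is no separate evidence. Single probes differed in their r with Aqp9. Gad2, which makes the transmitter GABA, had an r of 0.939 and Slc32a1, the vesicular GABA transporter, 0.820. Among probes detected on all 15 arrays the r was lower for Reln, a secreted neuronal protein (0.487 and 0.560), and for the astrocyte glutamate transporter Slc1a2 (0.499). The other GABA enzyme, Gad1, had 0.701 with a probe detected on 12 arrays. Slc17a7 (0.260) and Tbx21 (0.197) were detected on 6 and 7 arrays, and their values, often at the floor, say little. The myelin probes detected on 12 arrays or more lay between 0.13 and 0.72. Of the lists of other cell types, ensheathing and Schwann cells had an r of 0.736 with Aqp9 and mature olfactory neurons −0.578. The part of these cells in the Aqp9 values was not tested.

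Aqp4, also a channel of astrocytes, was set beside the same genes. Its r was −0.231 with Gfap and −0.271 with the summed brain list. The genes most like Aqp4 were Tspan8, a tetraspanin of epithelial cells (r = 0.901), F2, prothrombin (r = 0.885), and Galnt3, which starts mucin-type O-glycosylation (r = 0.885). Tspan8 was lowest in male 5A, as was Aqp4, while F2 was lowest in female 4A and Galnt3 in female 3A, and none of these 3 genes was highest in female 8A, where Aqp4 was. They too were picked for their likeness, and the part of any cell type in the Aqp4 values was not tested.

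Aqp1 had as its nearest neighbours Igfbp4, a secreted binding protein for insulin-like growth factors (r = 0.968), Prrx2, a homeobox factor of mesenchyme (r = 0.962), and Eng, endoglin, a co-receptor of endothelial and stromal cells (r = 0.951). All 3 had their lowest value in female 4B, the array with the lowest Aqp1, at 5.17 for Igfbp4, 3.92 for Prrx2 and −0.12 for Eng. By rat means Igfbp4 was lowest in rat 4 at 5.51 and highest in rat 7 at 6.50, and Prrx2 and Eng were lowest in rat 4 and highest in rat 5. These 3 genes were picked for their likeness to Aqp1, so their pattern over rats is a description. With slides centred the r with Aqp1 was 0.966, 0.956 and 0.946. There were 50 probes with an r of at least 0.9 with Aqp1, and 0 to 2 for each of Aqp2, Aqp3, Aqp4 and Aqp5.

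Beside the Aqp1 values, the summed level of 5 detected endothelial probes (of 13) had an r of 0.788 with Aqp1 and that of 5 bone cell probes (of 6) an r of 0.818. Among the endothelial markers Tek and Flt1 were detected on none of the arrays. The endothelial sum spanned 0.64 between rats, from rat 1 to rat 2 (5.32 to 5.96 in males and 5.40 to 5.80 in females), and the bone cell sum spanned 1.50, lowest in rat 4 at 10.85. Markers of red blood cells, which carry Aqp1 as well, spanned 3.92 and had an r of −0.273 with Aqp1. The part of these cells in the Aqp1 values was not tested.

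**Figure D4:**
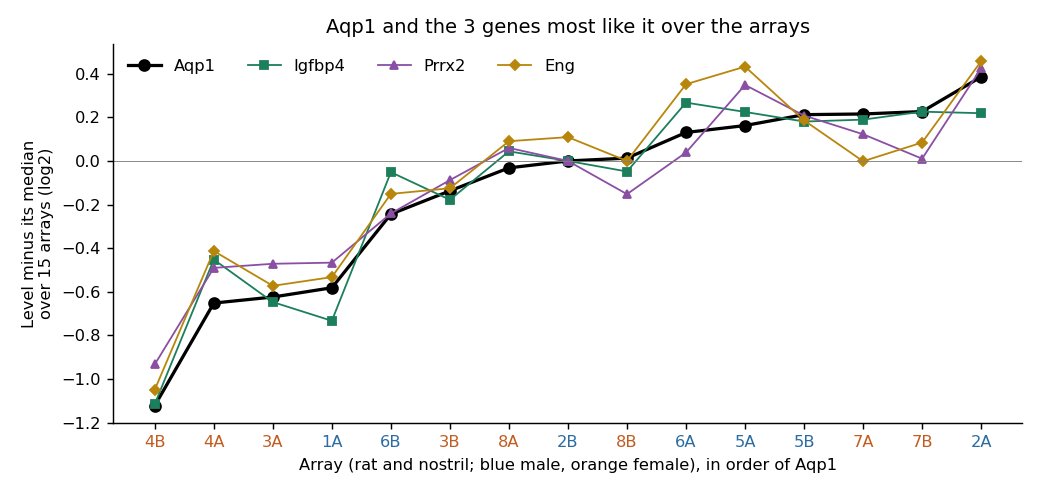
Level of Aqp1 and of Igfbp4, Prrx2 and Eng, each minus its own median over the 15 arrays (log2, y axis), with the arrays in order of Aqp1 (x axis, rat number and nostril). The lowest point of all 4 lines is nostril B of female rat 4.

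The remaining members had nearest neighbours, again among the 12110 named probes, with an r similar to those of Aqp4. Aqp3 was most like Siat7F, a sialyltransferase (r = 0.912), Bcap31, a cargo receptor of the endoplasmic reticulum (r = 0.891), and Diap1, an actin-nucleating formin (r = 0.886). Aqp2 was most like Cdkn1b, the cell cycle inhibitor p27 (r = 0.901), Jmjd2c, a histone demethylase (r = 0.900), and Taf2, a subunit of the general transcription factor TFIID (r = 0.898). With slides centred these fell to 0.659, 0.649 and 0.722. Aqp5 was most like Lap3, a leucine aminopeptidase (r = 0.883), Dhrsx (r = 0.870) and Nfs1, which supplies sulphur for iron-sulphur clusters (r = 0.862).

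It was also asked whether the aquaporins moved together from rat to rat. Of 15 pairs of expressed aquaporins compared over 8 rat means, none passed 5% after adjustment. By Pearson's r the strongest was Aqp1 with Aqp3 (r = 0.739, exact permutation p = 0.0383, adjusted p = 0.575, rho = 0.595, exact permutation p = 0.132, adjusted p = 0.661). It rests on rats 4 and 1, without which r was 0.128. Centred within slides, r was 0.285 over the arrays. By rank the strongest was Aqp5 with Aqp9 (rho = −0.667, exact permutation p = 0.0831, adjusted p = 0.661, r = −0.581, exact permutation p = 0.139, adjusted p = 0.697). Without rats 4 and 6 its r was −0.776, and centred within slides it was −0.566 over the arrays. The largest r over the arrays centred within slides was that of Aqp3 with Aqp5 (0.722, not tested), which had 0.269 over the 8 rats. Aqp2 and Aqp5, which are neighbours on chromosome 7, had an r of 0.181 over the 8 rats (exact permutation p = 0.629, adjusted p = 0.871), 0.091 over the 15 arrays and 0.276 over the arrays centred within slides.

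Water follows salt, so genes that move ions, osmolytes and glycerol or that anchor aquaporins were read in the same fits. The list named 86 genes, of which 66 were found by symbol with 90 probes, and 74 probes were tested. Between the sexes 0 of the 74 passed 1%, 1 passed 5%, beside 0.0724% of all probes, and 12 had an unadjusted p under 0.05, beside 17.1% of all, with a median difference of 0.044 beside 0.0092 for all probes. The probe past 5% was that of Kcnn4, a calcium-activated potassium channel, named here after its values were seen. It was lower in every female (1.53, 1.75, 1.89 and 1.99) than in every male (2.49 to 2.61), a difference of −0.76 (SE 0.099, limma adjusted p = 0.0335).

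Between rats of one sex 1 of the 74 probes passed 1%, beside 2.79% of all probes, and 8 passed 5%, beside 16.1%, and the median F was 2.42, close to the 2.41 of the aquaporins. The probe past 1% was 1 of 2 for Slc12a2, the Na-K-2Cl cotransporter NKCC1 that loads secretory cells and olfactory neurons with chloride. Its rat means were 3.49, 3.31, 3.61 and 3.50 in rats 1 to 4, whose arrays fill slides 1 and 2, and 2.91, 2.76, 2.91 and 2.65 in rats 5 to 8, on slides 3 and 4 (F 42.8, adjusted p = 0.000543). The rats on slides 1 and 2 did not overlap with those on slides 3 and 4, a split noticed after the values were seen. The share of all probes with such a split was not counted. It was not particular to this probe. The basal cell marker Trp63, named after its values were seen, lay at 5.43 to 5.78 in rats 1 to 4 and 5.87 to 6.26 in rats 5 to 8. With slide as a fixed block, which takes out such a split by construction and also compares males with females, 0 probes of the list passed 1%. With slide as a random block 1 probe did. The other Slc12a2 probe ranged from 4.74 in rat 2 to 5.30 in rat 3 (F 7.84, adjusted p = 0.0270), with rats 3 and 4 highest, and the probes had an r of 0.584 over the 8 rats.

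By role, 14 of 18 chloride and fluid secretion probes were expressed, as were 15 of 16 for the sodium pump and its FXYD partners, 13 of 14 for sodium absorption and 11 of 17 for the anchoring and trafficking of aquaporins, beside 65.1% of all probes. In the chloride group 4 of 14 tested probes passed 5% between rats of one sex, and in the sodium absorption group 1 of 14, beside 16.1% of all probes. None of 15 sodium pump probes and none of 11 anchoring probes did. The sodium pump group had a median range over rats of 0.75 beside 0.47 for all probes, and a median F of 1.77 beside 2.37.

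Of the further members of the aquaporin family, Aqp11, a channel of the endoplasmic reticulum, was expressed on all 15 arrays at 4.95 to 5.39, and did not pass 5% between the sexes (0.15, SE 0.070, limma adjusted p = 0.323) or between rats of one sex (adjusted p = 0.213). Mip, the channel of lens fibres, was above background on no array. Aqp10 and Aqp12 were not analysed here under those names.

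**Figure D5:**
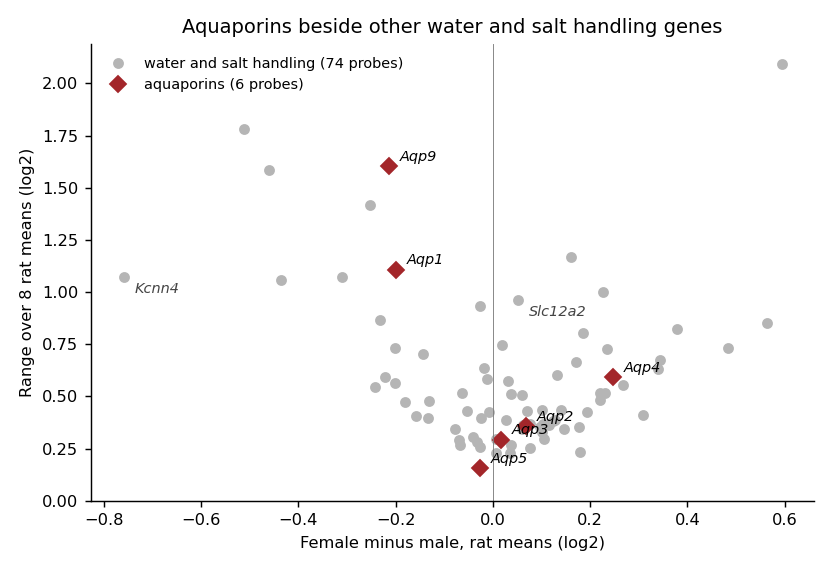
Difference between the sexes (x axis, female minus male rat means, log2) against the range over the 8 rat means (y axis, log2) for the 6 expressed aquaporins (red diamonds) and 74 other water and salt handling probes (grey). Aqp9 and Aqp1 lie among the wider-ranging probes, Aqp2, Aqp3 and Aqp5 lie low and near 0, Aqp4 lies to their right at 0.25 with a range of 0.59, and Kcnn4 and the Slc12a2 probe past 1% between rats are named.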

How the data were processed

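Each array was scanned and quantified by the authors with Feature Extraction (version 9.5.1.1 per the file headers), which gave a background-subtracted intensity per spot. The deposited intensity values were used. The authors also deposited a ratio table, in which each intensity is divided by its array median and by the gene's median over arrays: computed the same way, 99.94% of values of 19072 bright probes lay within 2% of it. Unflagged spots of a probe were averaged, divided by the array median, floored at 0.1 and log2-transformed (3 aquaporin spots were left out). Probes detected on at least 7 arrays were tested with limma 3.58.1 (moderated, with an intensity trend) and Benjamini-Hochberg adjustment, at 1% as in the study: sexes on 8 rat means, rats of one sex by an F-test, nostrils with rat as a block, since the labels pair the nostrils of a rat. Correlations between aquaporins used exact two-sided permutation. The fits were tested on simulated data. Pearson r between arrays was 0.984 to 0.996, so no pair of arrays was identical. The arrays filled 4 slides, and slide 1 alone held both sexes.

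Named were all members, listed genes past 1%, further family members, and the 3 genes most correlated with each expressed aquaporin. Kcnn4, RGD1562727 and the brain genes were named after their values were seen. The members, lists and tests were chosen with earlier results of these data known. Alternatives were another scaling (75th percentile, quantile), normexp background (offset 50), other filters, floor and threshold, the ratio table, slide as a block, and each rat left out. Probe names are those of the array design, and the number of arrays limits the precision.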

Additional observations from a re-analysis of the deposited data

How the results depend on the processing

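The count of expressed aquaporins was 6 with a rat or slide 2 left out and at 7 or 15 arrays, and 7 under the looser detection call. In total 0 aquaporins passed between sexes or between nostrils in any alternative run, including the fit with no replicate block (0 past 1%, where the nostril difference of Aqp9 had an unadjusted p of 0.0440). Between rats of one sex 0 aquaporins passed 1% in every alternative but the 5% threshold, at which 1 did (Aqp1). The adjusted p of Aqp1, the member past 5% there, ranged from 0.0139 without rat 3 to 0.432 with normexp background, and was also above 5% with no filter (0.0834) and with slide as a random block (0.0645). No pair of aquaporins passed 5% over the rats in any of the 12 alternatives, chosen after seeing the data.

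Among the 74 water and salt handling probes, the count past 1% between rats of one sex, with that over all probes in brackets (768 as reported), was 3 with 75th percentile scaling (1305), 4 with quantile normalization (1450), 0 with normexp background (78), 3 with no filter (980), 8 at the 5% threshold (4442), 0 with slide as a fixed block (72), 7 over all 8 rats (2416), and 1 to 2 with a rat left out (185 to 904). Between sexes it was 1 at 5% (20 over all probes) and 5 with 15 arrays taken as independent (1031), beside 12 over all probes as reported. With slide as a fixed block the sexes met on 1 female array only, so no count is given. The fits between rats with slide as a fixed block and over all 8 rats also compare males with females. The causes were not tested.

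Small sex differences changed direction. With a rat left out they ranged from −0.37 to 0.0082 for Aqp1 and from −0.029 to 0.061 for Aqp3. The range was −0.049 to 0.0037 for Aqp5 and −0.52 to 0.015 for Aqp9. With a rat left out Aqp2 (0.014 to 0.12) and Aqp4 (0.19 to 0.32) stayed above 0. Aqp3, 0.017 as reported, was 0.092 with quantile normalization (adjusted p = 0.215), 0.11 with slide as a fixed block, −0.010 with 75th percentile scaling, −0.028 with normexp, −0.0026 with arrays as samples, and negative without rats 1 or 7. The sex difference of Aqp1 was −0.20, −0.56 with slide as a fixed block and −0.39 with slide as a random block. With slide as a fixed block Aqp2 was −0.094, Aqp4 −0.048 and Aqp5 0.085. Aqp5 was 0.012 with slide as a random block, above 0 without rat 4, and 0.027 without slide 2 (added after seeing the data). Aqp1 turned without rat 4 and Aqp9 without rat 7. With normexp background the range over rats was 1.52 for Aqp1 (1.11 as reported), 0.18 for Aqp2 (0.36 as reported), 0.72 for Aqp3 (0.29 as reported) and 0.65 for Aqp5 (0.16 as reported), without rat 4 it was 0.80 for Aqp1, and with quantile normalization 0.18 for Aqp3. The number of arrays limits the precision, and Aqp6 and Aqp8 were not above background on any.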

Other observations

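A probe annotated as similar to aquaporin 12, listed under the name RGD1562727 and noticed after the values were seen, was well above background on all 15 arrays. Its level ranged from −0.15 through a median of 0.38 to 0.77. It did not pass between the sexes (−0.0017, SE 0.16, limma adjusted p = 0.997) or between rats of one sex (F 2.80, adjusted p = 0.166).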
